A study of Sus scrofa domesticus with 6 samples.

Results

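Crypt stem cell genes were followed in bulk RNA sequencing of minipig small intestine after abdominal irradiation, with and without pravastatin. The set held 10 genes named by symbol (LGR5, ASCL2, OLFM4, SMOC2, AXIN2, RNF43, EPHB2, SOX9, LRIG1 and CD44), and all 10 were found among the 30352 named genes of the table. The animals were wild-type Göttingen minipigs aged 6 months, a small pig strain. The IR_Pra group (2 animals) received 15 Gy of gamma rays to the abdomen from a cobalt source and oral pravastatin at 40 mg/day for 2 weeks. Pravastatin is a statin, an inhibitor of the rate-limiting enzyme of cholesterol synthesis. In the labels this group appears with Pra and with PS, and PS was taken to be the same drug. The IR group (2 animals) received the same 15 Gy without the drug, and the control group (2 animals) is labelled only as control. Small intestine was taken on day 14 in the treated groups, and the labels name neither the gut segment nor the layer of the wall that was sampled. Each library came from 1 animal, so the spread within a group is the spread between 2 animals.

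The lining of the small intestine is renewed from stem cells at the base of the crypts, and radiation kills dividing crypt cells. Wnt ligands, which act through Frizzled receptors and their LRP co-receptors, keep these cells in the stem state, and R-spondins bound by LGR receptors strengthen that signal. Several genes of the set are Wnt targets, and some of them, such as AXIN2 and RNF43, damp the pathway as feedback inhibitors. Most of this knowledge comes from mouse and human gut.

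Counts summed to 48600424 and 51106541 in the IR_Pra libraries, 62165352 and 73975174 in IR, and 57905213 and 62071404 in control. IR 2, the second irradiated animal, stood apart in its tissue markers. Levels are given as CPM, read counts scaled to library size with TMM factors. The summed level of 9 general epithelial genes, EPCAM and keratins among them, was 6488 and 5452 CPM in IR_Pra, 5746 and 1450 CPM in IR 1 and IR 2, and 5391 and 6395 CPM in control. For 11 enterocyte genes the sum was 19061 and 18420 CPM in IR_Pra, 50172 and 1159 CPM in IR 1 and IR 2, and 24154 and 26577 CPM in control. IR 2 was thus low in both sums. In IR 1 the enterocyte sum was the highest of the 6, while the median log2 difference of these genes from the control mean was -0.64 in IR 1 and -3.71 in IR 2. Both IR animals lay below both controls for 6 of 11 enterocyte genes and 5 of 9 general epithelial genes, beside 30% of all genes. The sum of 8 smooth muscle genes was 20288 and 13830 CPM in IR_Pra, 32401 and 68506 CPM in IR, and 5890 and 12128 CPM in control. EPCAM itself, an adhesion molecule of epithelial cells, had 589 and 614 CPM in IR_Pra, 456 and 67.9 CPM in IR, and 754 and 768 CPM in control. IR 1 differed in another way, since its shortest 10% of genes by transcript length stood 0.62 above control on the log2 scale and its longest 10% stood at -0.71. The part of these differences in the results below was not tested. In bulk tissue, fewer cells of a type and less RNA per cell cannot be told apart.

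Levels were compared between genes only per transcript length, as FPKM in the deposited table, which are not TMM-scaled. OLFM4, a secreted glycoprotein of crypt stem cells in human gut, ranked first of the 10 in all 6 libraries. Its FPKM averaged 186 ± 105 in IR_Pra, 119 ± 83.6 in IR and 82.3 ± 31.8 in control (SD, n = 2 animals each, as for every mean ± SD below). LGR5, the R-spondin receptor that marks crypt base columnar stem cells, ranked last in all 6 libraries, at 0.385 ± 0.177 FPKM in IR_Pra, 0.0953 ± 0.0656 FPKM in IR and 0.603 ± 0.269 FPKM in control. The set thus spans a wide range, and its best known stem cell receptor was the least abundant member. The means of LRIG1, CD44 and SMOC2 came next after OLFM4 in each group, and their order did not exceed their spread: they averaged 21.3 ± 3.94, 21.6 ± 5.08 and 20.6 ± 2.46 FPKM in IR_Pra, 30.7 ± 23.4, 17.2 ± 1.99 and 25.7 ± 9.81 FPKM in IR, and 13.0 ± 6.81, 13.4 ± 3.96 and 17.4 ± 5.17 FPKM in control. The means of RNF43, SOX9, AXIN2, EPHB2 and ASCL2 lay between those of these genes and LGR5, although in IR 1 RNF43 held rank 4, above LRIG1 at rank 5. ASCL2 held rank 9 of 10 in both IR_Pra libraries, ranks 6 and 5 in IR 1 and IR 2, and rank 8 in both control libraries. OLFM4 took 61.9% and 46.8% of the summed CPM of the 10 genes in IR_Pra, 34.8% and 49.8% in IR, and 44.1% and 45.2% in control.

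The question of the irradiated against the control animals is how the crypt stem cell genes stood 14 days after exposure, and that of IR_Pra against IR is how they stood with the drug. No member passed the threshold in any of the 3 comparisons (edgeR quasi-likelihood test, Benjamini-Hochberg adjusted p under 0.05 over 18197 genes). For IR against control this is 0 of 10, beside 6.06% of all genes tested (3.39% higher and 2.68% lower). For IR_Pra against IR it is 0 of 10 beside 0.0055%, which is a single gene, and for IR_Pra against control 0 of 10 beside 0%. At an unadjusted p under 0.05 there was 1 member in IR against control (LGR5, lower) beside 30.2% of all genes, 3 in IR_Pra against IR (LGR5 and SOX9 higher, ASCL2 lower) beside 24.5%, and 0 in IR_Pra against control beside 3.42%. DESeq2 passed 1 of 10 in IR against control, LGR5 (log2 -2.55, adjusted p = 0.00370), beside 22.7% of all genes. It passed 2 of 10 in IR_Pra against IR, LGR5 (1.95, adjusted p = 0.0469) and SOX9 (0.66, adjusted p = 0.0432), beside 15.8% of all genes. In IR_Pra against control it passed 0 of 10, beside 0.406%. These counts lie near or below the background. IR_Pra against IR and IR against control share the IR libraries, so values of the same gene in both are not independent.

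The median log2 fold change of the 10 genes was 0.46 in IR against control, where the median of all genes tested was 0.03. It was 0.17 in IR_Pra against IR (all genes -0.02) and 0.30 in IR_Pra against control (all genes 0.00). The libraries of the groups did not overlap for 5 of 10 members in IR against control, beside 59.8% of all genes: 3 were higher in IR (29.8% of all genes) and 2 lower (30%). In IR_Pra against IR they did not overlap for 5 of 10, beside 53.9%: 3 were higher in IR_Pra (27.3%) and 2 lower (26.6%). Both counts lie near the background. In IR_Pra against control they did not overlap for 5 of 10 (OLFM4, EPHB2, SOX9, LRIG1 and CD44), beside 40.8%. All 5 were higher in IR_Pra (20.8% of all genes) and 0 were lower (20%). The gap was narrow for OLFM4, LRIG1 and CD44. In these genes IR_Pra 2 stood 0.45, 0.57 and 0.37 log2 units above the control mean. Control 2 stood 0.39, 0.55 and 0.30 above it.

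**Figure D1:**
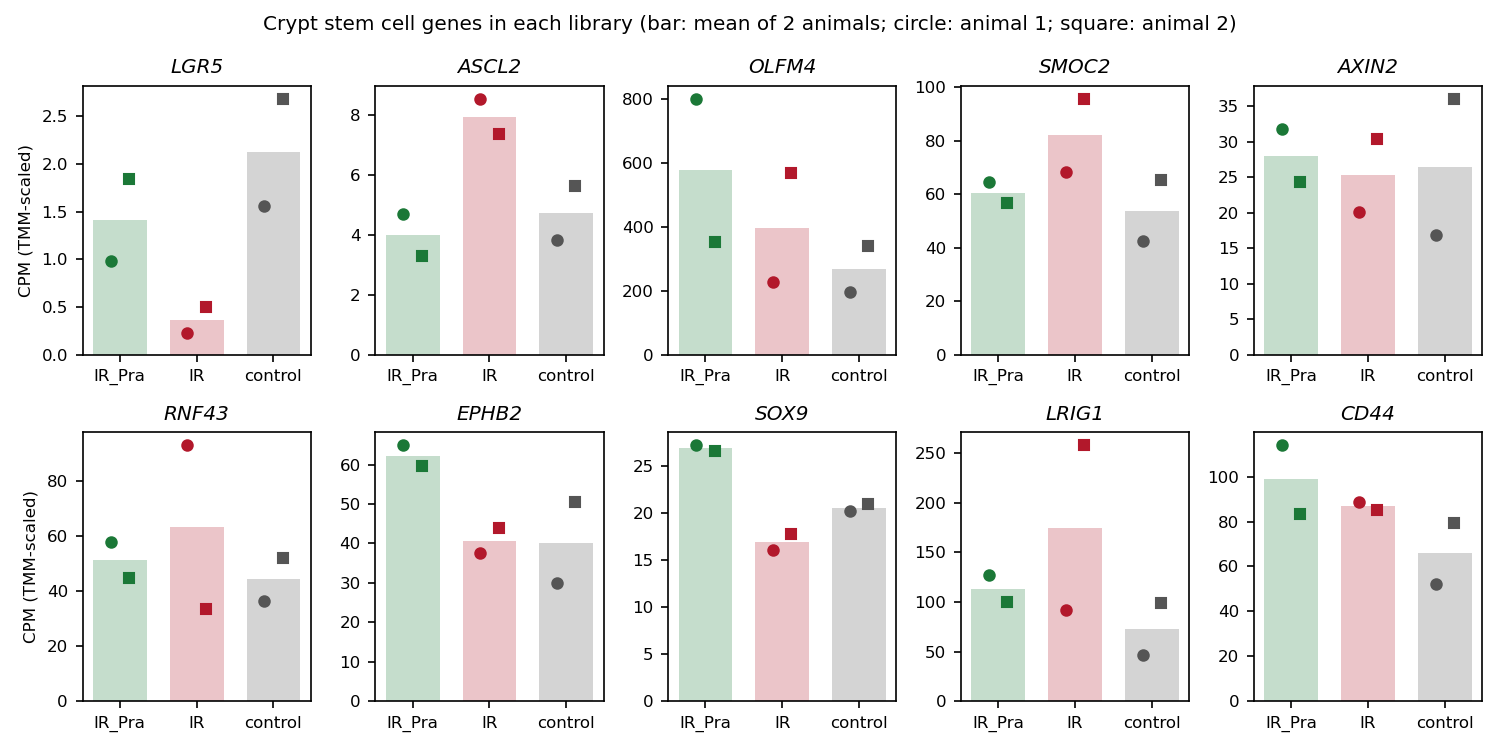
Level of each crypt stem cell gene in TMM-scaled CPM (linear axis from 0, a separate scale for each gene). Bars give the mean of the 2 animals of IR_Pra, IR and control, circles animal 1 and squares animal 2. LGR5 is lowest in both IR animals (0.223 and 0.502 CPM), while OLFM4, RNF43 and LRIG1 differ widely between animals of 1 group.

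On the TMM scale, LGR5 showed the largest difference of the 10 genes in both IR comparisons; on epithelial counts it did not, at -1.25 in IR against control beside 3.01 for LRIG1, and 0.70 in IR_Pra against IR beside -2.35 for LRIG1. LGR5 (Entrez gene 100151994, chromosome 5, 35463257 to 35595234 on Sscrofa11.1) had 0.985 and 1.84 CPM in IR_Pra, 0.223 and 0.502 CPM in IR, and 1.56 and 2.68 CPM in control. Both IR animals lay below all the others, and the IR_Pra and control animals overlapped. The means were 1.41 ± 0.603 CPM in IR_Pra, 0.362 ± 0.197 CPM in IR and 2.12 ± 0.795 CPM in control. The fitted value in IR was 5.73-fold lower than in control, a log2 fold change of -2.52 ± 0.65 (SE) with a 95% interval of -4.11 to -0.93 and an adjusted p of 0.0691 in edgeR. In IR_Pra it was 3.82-fold higher than in IR, a log2 fold change of 1.93 ± 0.64 with an interval of 0.35 to 3.51 and an adjusted p of 0.147. Against control, IR_Pra stood at -0.59 ± 0.60 with an interval of -2.06 to 0.88. That interval includes both 0 and values nearly as low as the IR difference.

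The depth behind LGR5 was low. The reads assigned to it were 51 and 98 in IR_Pra, 12 and 38 in IR, and 90 and 169 in control, or 149, 50 and 259 summed over the animals of IR_Pra, IR and control. Exact Poisson 95% intervals, which cover counting error only, ran from 0.115 to 0.389 CPM in IR 1 and from 0.355 to 0.689 CPM in IR 2. They ran from 0.733 to 1.29 and from 1.49 to 2.24 CPM in the IR_Pra libraries, and from 1.25 to 1.92 and from 2.29 to 3.12 CPM in control. Counting error alone therefore left both IR libraries below every other library. TSPAN8 overlaps the LGR5 locus by 19532 bases, and the sources used here do not say whether counting used strand. TSPAN8 itself had at most 0.116 CPM.

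The other genes of stem cell identity were not lowest in IR. ASCL2 (Entrez gene 100144467, chromosome 2, 1558459 to 1560112) encodes a transcription factor that sets stem cell fate in mouse crypts. ASCL2 had 4.71 and 3.30 CPM in IR_Pra, 8.54 and 7.36 CPM in IR, and 3.83 and 5.62 CPM in control. Both IR animals were above all 4 others, the reverse of LGR5, and IR_Pra and control overlapped. The log2 fold change of ASCL2 was 0.75 ± 0.36 in IR against control (interval -0.15 to 1.65, edgeR adjusted p = 0.226) and -0.99 ± 0.37 in IR_Pra against IR (interval -1.89 to -0.09, adjusted p = 0.175). With the transcript length trend removed, these values were smaller, at 0.45 and -0.69.

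OLFM4 (Entrez gene 100737320, chromosome 11, 26252948 to 26375531) had 801 and 353 CPM in IR_Pra, 226 and 568 CPM in IR, and 197 and 339 CPM in control. The IR animals spanned the control range and beyond, and both IR_Pra animals lay above both controls, 1 of them narrowly. The log2 fold changes of OLFM4 were 0.57 ± 0.61 in IR against control (edgeR adjusted p = 0.560), 0.54 ± 0.61 in IR_Pra against IR (0.613) and 1.11 ± 0.61 in IR_Pra against control (interval -0.40 to 2.62, adjusted p = 0.9998). SMOC2 (Entrez gene 100737228, chromosome 1, 1193163 to 1332739), a secreted matrix protein enriched in LGR5 cells of the mouse, had 64.3 and 56.5 CPM in IR_Pra, 68.3 and 95.6 CPM in IR, and 42.3 and 65.2 CPM in control. Both IR animals lay above the other 4, at 0.61 ± 0.31 against control (adjusted p = 0.239), and IR_Pra stood at -0.44 ± 0.31 against IR (adjusted p = 0.412). Neither gene passed the threshold in any comparison.

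**Figure D2:**
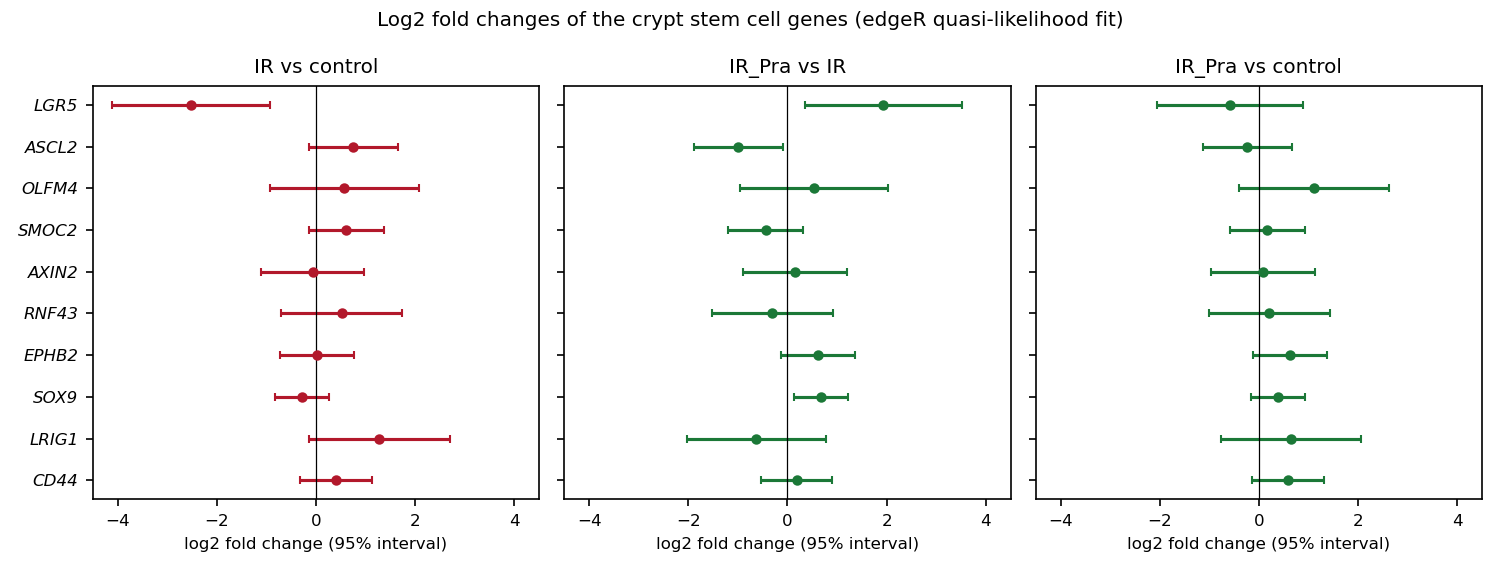
Log2 fold change of each crypt stem cell gene (points) with its 95% interval (bars) from the edgeR fit, in IR vs control, IR_Pra vs IR and IR_Pra vs control. The interval leaves out 0 for LGR5 in IR vs control, and for LGR5, ASCL2 and SOX9 in IR_Pra vs IR; no gene passed the adjusted threshold.

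AXIN2 and RNF43, the feedback inhibitors within the set, overlapped between all groups. AXIN2 (Entrez gene 100739604, chromosome 12, 12311293 to 12343207) encodes a scaffold of the complex that degrades beta-catenin. AXIN2 had 31.7 and 24.3 CPM in IR_Pra, 20.2 and 30.4 CPM in IR, and 16.9 and 36.0 CPM in control. The control animals enclosed all the others, and the log2 fold change was -0.07 ± 0.42 in IR against control (interval -1.11 to 0.98) and 0.15 ± 0.42 in IR_Pra against IR (interval -0.90 to 1.19). Changes of about 1 log2 unit either way thus lay within the intervals for AXIN2. The CEP112 gene overlaps the AXIN2 locus by 2925 bases. CEP112 had 2.14 and 1.63 CPM in IR_Pra, 2.30 and 7.61 CPM in IR, and 0.918 and 1.35 CPM in control. Its part in the AXIN2 counts was not tested. RNF43 (Entrez gene 100517305, chromosome 12, 34631574 to 34695021) encodes a ubiquitin ligase that removes Frizzled receptors from the membrane, the step that R-spondin and LGR receptors block. RNF43 had 57.9 and 44.6 CPM in IR_Pra, 93.1 and 33.6 CPM in IR, and 36.4 and 52.3 CPM in control. The IR animals were the highest and the lowest of all 6, and the fold changes were 0.51 ± 0.50 in IR against control (edgeR adjusted p = 0.518) and -0.31 ± 0.49 in IR_Pra against IR (0.732).

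Among the Wnt targets of crypt position and progenitor state, SOX9 was tightest between animals. SOX9 (Entrez gene 396840, chromosome 12, 8642154 to 8647315), a transcription factor of crypt base cells, had 27.2 and 26.6 CPM in IR_Pra, 16.0 and 17.7 CPM in IR, and 20.2 and 21.0 CPM in control. The 3 groups did not overlap, with IR_Pra highest and IR lowest. The log2 fold change of SOX9 was 0.67 ± 0.22 in IR_Pra against IR (interval 0.13 to 1.21, edgeR adjusted p = 0.144), -0.29 ± 0.22 in IR against control (adjusted p = 0.419) and 0.39 ± 0.22 in IR_Pra against control (interval -0.16 to 0.93). With epithelial counts as the scale, the first of these reads -0.72 and the second 1.08. EPHB2 (Entrez gene 100519549, chromosome 6, 80649098 to 80849979), a receptor that positions cells along the crypt axis, had 64.9 and 59.7 CPM in IR_Pra, 37.6 and 43.8 CPM in IR, and 29.8 and 50.5 CPM in control. Both IR_Pra animals lay above the other 4, at 0.61 ± 0.30 against IR (interval -0.13 to 1.36, adjusted p = 0.272). This value reads -0.81 with epithelial counts as the scale and 0.19 with the transcript length trend removed. IR and control overlapped, at 0.02 ± 0.30.

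LRIG1 (Entrez gene 100521990, chromosome 13, 47909002 to 48027396) encodes a membrane inhibitor of ErbB receptors that marks crypt stem and progenitor cells in the mouse. LRIG1 had 127 and 100.03 CPM in IR_Pra, 91.8 and 258 CPM in IR, and 46.1 and 98.7 CPM in control. IR 2 held the highest value, and IR 1 lay within the control range. The log2 fold change was 1.27 ± 0.58 in IR against control (interval -0.15 to 2.70, edgeR adjusted p = 0.202) and -0.63 ± 0.57 in IR_Pra against IR (adjusted p = 0.531). With 1 IR library left out, the IR against control value was 1.83 without IR 1 and 0.34 without IR 2. In each case 1 animal alone stands for the IR group and is assumed to vary like the other groups. CD44 (Entrez gene 100525150, chromosome 2, 25788699 to 25884209) is a hyaluronan receptor and Wnt target that leukocytes and stromal cells also carry. CD44 had 114 and 83.5 CPM in IR_Pra, 88.9 and 85.1 CPM in IR, and 52.3 and 79.4 CPM in control. Both control animals were below the other 4, at 0.40 ± 0.30 for IR against control (adjusted p = 0.398) and 0.58 ± 0.30 for IR_Pra against control (interval -0.14 to 1.31). IR_Pra and IR overlapped for CD44.

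The 10 genes often shared an order between the 2 animals of a group. In control, all 10 were higher in animal 2 than in animal 1, where 49.8% of all genes were. In IR_Pra, 9 were higher in animal 1, where 50.4% of all genes were, and in IR, 7 were higher in IR 2, where 57.0% of all genes were. The median absolute log2 difference between the 2 animals was 0.38 for the 10 genes in IR_Pra (all genes 0.32), 0.54 in IR (0.66) and 0.69 in control (0.28). The control animals therefore differed more from each other in these genes than in the typical gene. The widest gaps were those of OLFM4 in IR_Pra (1.18) and of LRIG1 in IR (1.49) and in control (1.10).

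The makeup of the set was described by ratios to LGR5. The ratio of FPKM to that of LGR5 was higher in both IR animals than in both controls for 9 of 9 other members, and lower in both IR_Pra animals than in both IR animals for 9 of 9. These 9 ratios share LGR5 as their denominator, so they restate its low level in IR and are not separate results. With the same denominator, both IR_Pra animals also exceeded both controls in the ratios of all these members except ASCL2, which overlapped. The ASCL2 to LGR5 ratio was 17.8 and 6.16 in IR_Pra, 140 and 49.1 in IR, and 8.49 and 6.60 in control. The OLFM4 to LGR5 ratio was 1004 and 219 in IR_Pra, 1229 and 1259 in IR, and 145 and 132 in control.

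Set against the epithelium, the 2 irradiated animals parted further for most members, but not for RNF43, at 1.12 in IR 1 and 1.64 in IR 2 on the log2 scale. Per 10000 counts of the 9 general epithelial genes, LGR5 had 1.52 and 3.37 counts in IR_Pra, 0.388 and 3.46 in IR 1 and IR 2, and 2.89 and 4.20 in control. LGR5 was thus low per epithelial count in IR 1 but within the control range in IR 2, and its log2 fold change in IR against control was -1.25 with an edgeR adjusted p of 0.485 on this scale. The other 9 members stood 1.64 to 3.95 log2 units above the control mean in IR 2. The epithelial sum itself was 1450 CPM in IR 2 beside 5391 and 6395 CPM in control. The scale thus lifts every gene of IR 2, and these values do not set the members apart from other genes. OLFM4 had 1235 and 647 in IR_Pra, 394 and 3919 in IR, and 365 and 529.7 in control, and LRIG1 had 195 and 183 in IR_Pra, 159.8 and 1780 in IR, and 85.4 and 154 in control. Both IR animals exceeded both controls for 5 of 10 members (ASCL2, SMOC2, RNF43, LRIG1 and CD44), beside 40% of all genes, and lay below both for 0 of 10, beside 5.86%. LRIG1 passed the threshold on this scale in IR against control (log2 3.01, adjusted p = 0.0320), as did 7.3% of all genes. These counts lie near the background of that scale. The scale moved the median of all genes from 0.03 to 1.32 in IR against control and from -0.02 to -1.31 in IR_Pra against IR. These values are therefore relative to the epithelial genes and not to the typical gene.

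**Figure D3:**
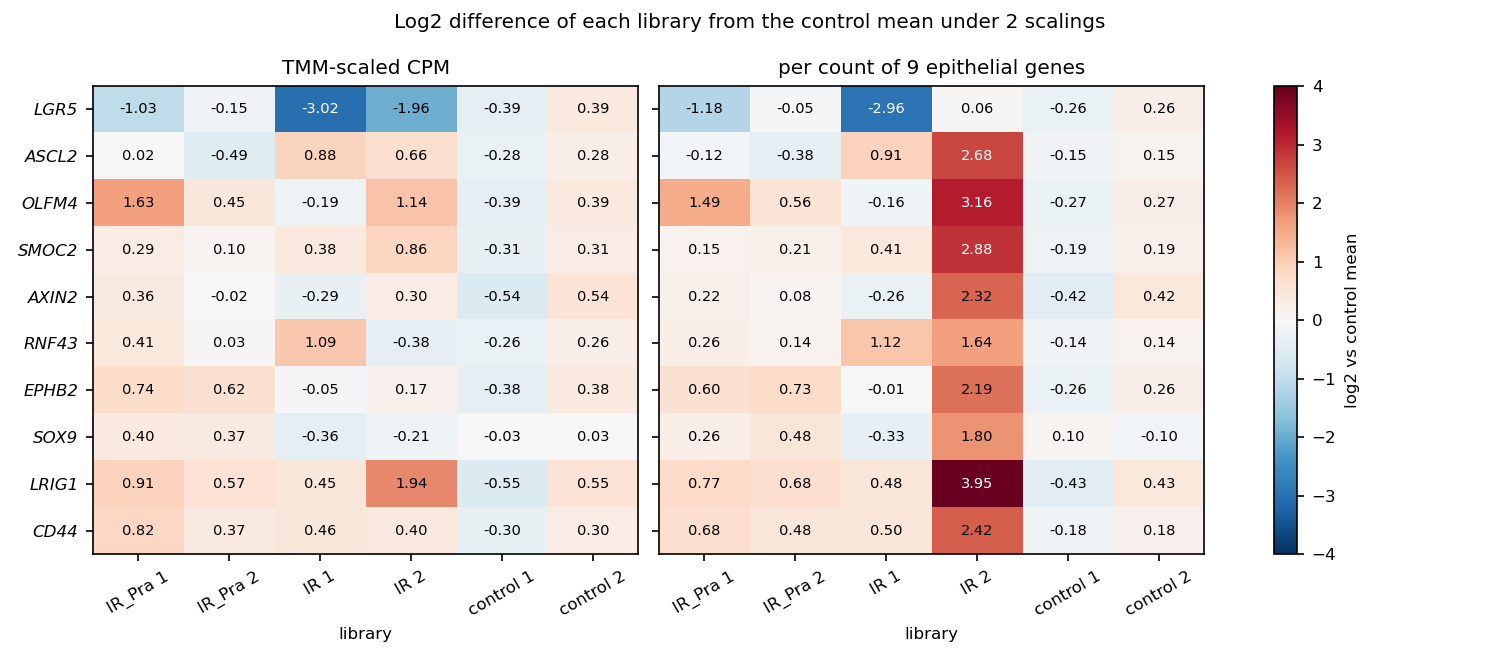
Log2 difference of each library from the control mean for the 10 genes, with TMM-scaled CPM (left) and per count of 9 epithelial genes (right). Red is above and blue below the control mean, and the number in each cell is the value. LGR5 is below the control mean in both IR libraries on the left (-3.02 and -1.96), and in IR 1 alone among IR libraries on the right (-2.96, against 0.06 in IR 2).

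Markers of other cells of the gut wall moved with the IR group. Of 7 macrophage genes, 6 rose in IR against control, beside 3.39% of all genes (edgeR). The summed level of the 7 was 908 and 1349 CPM in IR_Pra, 2603 and 2979 CPM in IR, and 536 and 546 CPM in control. Of 9 lymphocyte genes, 4 fell, beside 2.68% of all genes, with sums of 300.1 and 556 CPM in IR_Pra, 142 and 125 CPM in IR, and 659 and 400.1 CPM in control. Fibroblast genes summed to 6994 and 4795 CPM in IR_Pra, 8130 and 24867 CPM in IR, and 1978 and 3256 CPM in control, though 0 of 8 passed (edgeR; 7 at an unadjusted p under 0.05, and 6 in DESeq2). Among 8 smooth muscle genes, ACTA2 passed and was higher (edgeR; 7 at an unadjusted p under 0.05, and 8 in DESeq2), and both IR animals exceeded both controls for all 8, beside 29.8% of all genes. Of all genes, 30.2% had an unadjusted p under 0.05 in edgeR and 22.7% passed in DESeq2. Fibroblasts and leukocytes can also express members of the set such as CD44, and the part of these cells in the values above was not tested. All genes of the macrophage, lymphocyte, fibroblast and smooth muscle lists were detected in at least 1 library, so none of these lists had a defining marker at 0 throughout.

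**Figure D4:**
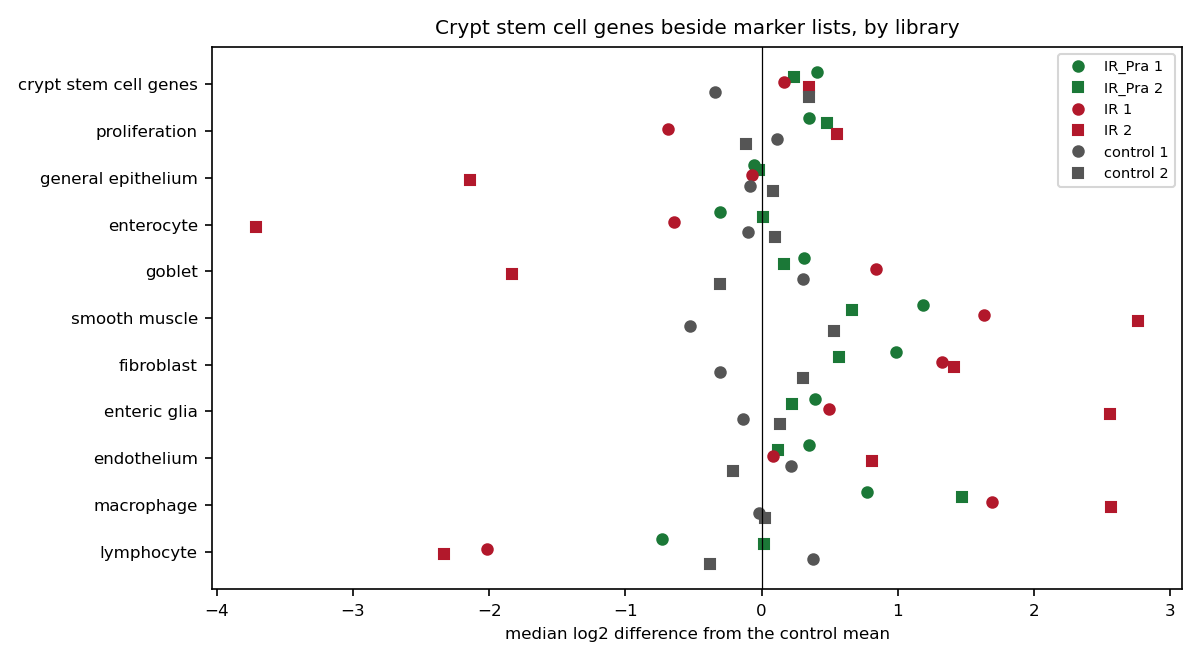
Median log2 difference from the control mean, in each library, of the crypt stem cell genes and of the genes of 10 other lists. The medians of the crypt stem cell genes are 0.17 in IR 1 and 0.35 in IR 2, while enterocyte genes are at -0.64 and -3.71 and smooth muscle genes at 1.63 and 2.76.

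Around the set, components of the Wnt pathway differed in both directions after irradiation. On the side of receptors, ligands and effectors, 2 of 17 genes kept after filtering rose in IR against control and 3 fell, with a median log2 fold change of 0.32. Of all genes, 3.39% rose and 2.68% fell, with a median of 0.03. RSPO1, an R-spondin and so a ligand of LGR5, had 3.997 and 3.71 CPM in IR_Pra, 21.0 and 30.2 CPM in IR, and 2.58 and 3.41 CPM in control. Its log2 fold change was 3.10 ± 0.34 in IR against control (edgeR adjusted p = 0.0359) and -2.73 ± 0.33 in IR_Pra against IR (adjusted p = 0.0754). WNT6, a Wnt ligand, was at 0.309 and 0.375 CPM in IR_Pra, 2.099 and 4.19 CPM in IR, and 0.502 and 0.476 CPM in control (2.68 ± 0.53, adjusted p = 0.0480). For both ligands the 2 IR animals lay above the other 4.

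The receptor LGR4, a relative of LGR5 that is expressed more widely in the gut lining, had 125 and 74.3 CPM in IR_Pra, 18.1 and 17.7 CPM in IR, and 92.1 and 103 CPM in control. LGR4 fell in IR against control by 2.44 ± 0.31 on the log2 scale (edgeR adjusted p = 0.0370), and stood 2.48 ± 0.31 higher in IR_Pra than in IR (adjusted p = 0.0754). LGR4 was thus low in the same animals as LGR5. FZD5, a Frizzled receptor of the intestinal epithelium, had 141 and 90.6 CPM in IR_Pra, 25.1 and 9.93 CPM in IR, and 121 and 146 CPM in control (IR against control -2.94 ± 0.51, adjusted p = 0.0410). APC, a scaffold of the complex that degrades beta-catenin, had 55.3 and 46.4 CPM in IR_Pra, 12.6 and 24.5 CPM in IR, and 65.4 and 62.7 CPM in control (-1.79 ± 0.36, adjusted p = 0.0480). With epithelial counts as the scale, none of these 3 losses passed, while the rises of RSPO1 and WNT6 did. The median of all genes stood at 1.32 on that scale, so losses shrink and rises grow for any gene. The scale therefore cannot show that the rises are firmer than the losses. In IR_Pra against IR, 0 of the 17 passed (edgeR; 5 higher and 4 lower at an unadjusted p under 0.05, and 4 higher and 3 lower in DESeq2), and in IR_Pra against control 0 passed (0 higher and 1 lower unadjusted, 0 in DESeq2). The shares of all genes were 24.5% unadjusted and 15.8% in DESeq2 for IR_Pra against IR, and 3.42% and 0.406% for IR_Pra against control.

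Of 19 other Wnt target genes kept, 3 rose in IR against control and 0 fell (edgeR; 5 higher and 4 lower at an unadjusted p under 0.05, and 5 and 3 in DESeq2), with a median log2 fold change of 0.22. Of all genes, 3.39% rose and 2.68% fell in edgeR, with a median of 0.03. Unadjusted, 30.2% of all genes were under 0.05, and 22.7% passed in DESeq2. NKD1 and NKD2 inhibit the pathway at Dishevelled, and CCND1 encodes cyclin D1. CCND1 had 47.5 and 28.2 CPM in IR_Pra, 77.6 and 91.6 CPM in IR, and 20.6 and 17.9 CPM in control (2.14 ± 0.32 in IR against control, adjusted p = 0.0370). NKD1 had 8.94 and 6.49 CPM in IR_Pra, 18.7 and 42.2 CPM in IR, and 4.22 and 6.06 CPM in control (2.56 ± 0.48, adjusted p = 0.0446). NKD2 had 18.2 and 15.0 CPM in IR_Pra, 44.3 and 86.2 CPM in IR, and 14.4 and 16.6 CPM in control (2.07 ± 0.37, adjusted p = 0.0423). All 3 were highest in the IR animals, whereas AXIN2 and RNF43 of the set overlapped between IR and control. The 8 calls among both lists held without either IR library, and none of the 8 held without either control or either IR_Pra library (adjusted p 0.101 to 0.247). In IR_Pra against IR 0 of 19 passed (3 higher and 4 lower unadjusted, beside 24.5% of all genes). DESeq2 passed LEF1, TCF7 and PROX1 as higher and NKD1, NKD2 and CCND1 as lower, beside 15.8% of all genes. In IR_Pra against control 0 of 19 passed in edgeR. Unadjusted, 2 were higher and 0 lower, beside 3.42% of all genes, and DESeq2 passed 0, beside 0.406%.

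**Figure D5:**
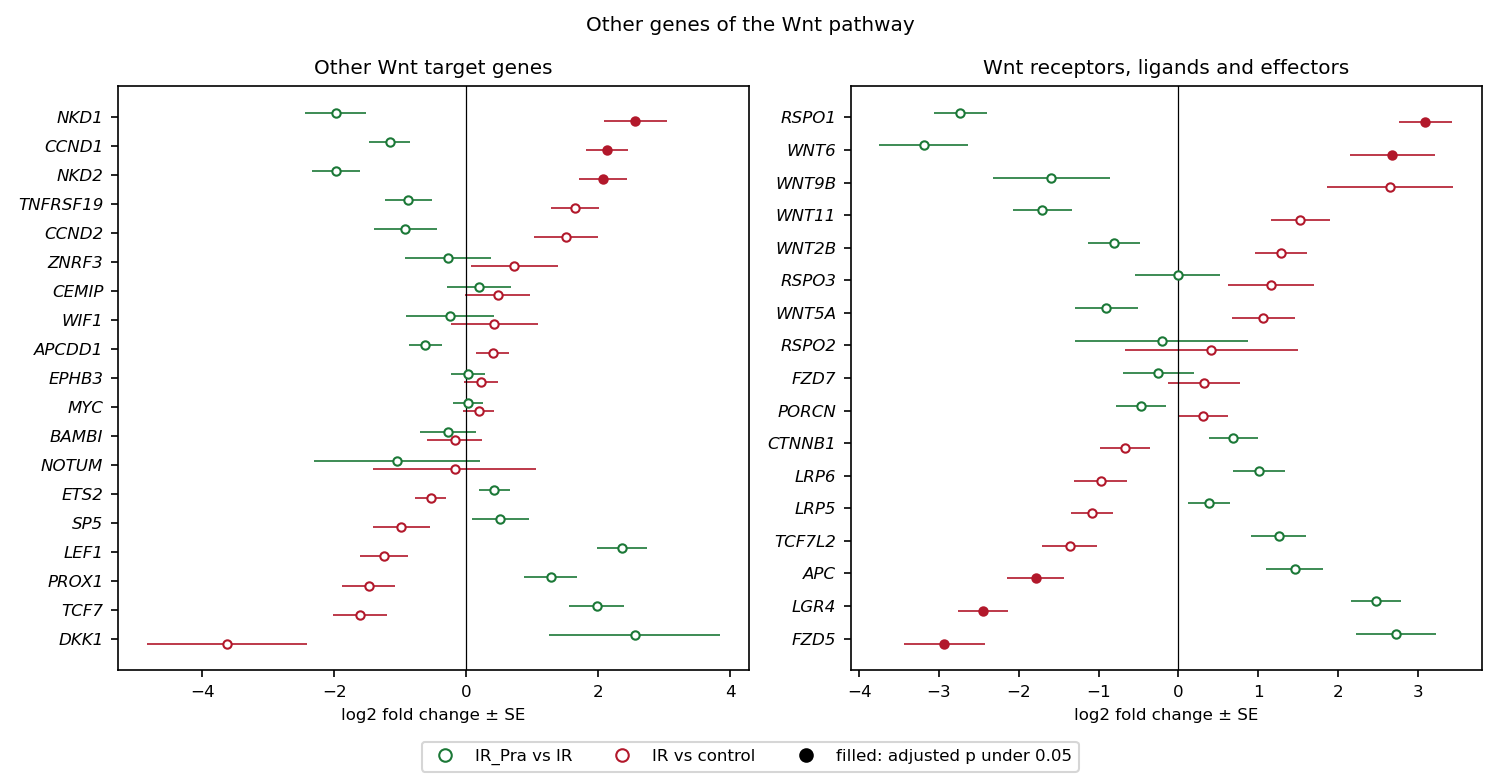
Log2 fold change ± SE of other Wnt target genes (left) and of Wnt receptors, ligands and effectors (right) in IR_Pra vs IR (green) and IR vs control (red), ordered by IR vs control. Filled points passed the adjusted threshold; they are CCND1, NKD1 and NKD2 on the left, and RSPO1, WNT6, LGR4, FZD5 and APC on the right. Both comparisons contain the IR libraries.

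Other genes linked to intestinal stem and progenitor cells gave no call in edgeR. Of 18 kept, 0 passed in any comparison, with medians of 0.12 in IR against control, 0.10 in IR_Pra against IR and 0.33 in IR_Pra against control. At an unadjusted p under 0.05, 3 were higher and 1 lower in IR against control, 3 higher and 1 lower in IR_Pra against IR, and 1 higher and 0 lower in IR_Pra against control. DESeq2 passed HOPX, PTPRO and PHLDA1 as higher and TERT as lower in IR against control, ZBTB38 as higher and HOPX as lower in IR_Pra against IR, and 0 in IR_Pra against control. In the same order, the shares of all genes were 30.2%, 24.5% and 3.42% unadjusted, and 22.7%, 15.8% and 0.406% in DESeq2. HOPX, a homeodomain protein that marks reserve stem cells in mouse, had 10.9 and 12.1 CPM in IR_Pra, 25.2 and 29.1 CPM in IR, and 8.48 and 12.3 CPM in control (IR against control 1.38 ± 0.29, edgeR adjusted p = 0.0505). TERT, the catalytic subunit of telomerase, had 19.4 and 25.4 CPM in IR_Pra, 16.3 and 7.14 CPM in IR, and 42.2 and 45.9 CPM in control (-1.91 ± 0.43, adjusted p = 0.0559).

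Genes of cell division did not pass in any comparison with all 6 libraries. Of 23 kept, 0 passed in edgeR or DESeq2, and at an unadjusted p under 0.05 there was 1 higher in IR against control, 0 in IR_Pra against IR and 2 higher (CDK1 and TYMS) in IR_Pra against control. The unadjusted shares of all genes were 30.2%, 24.5% and 3.42% in that order. Their median log2 fold change was 0.05 in IR against control, 0.29 in IR_Pra against IR and 0.39 in IR_Pra against control. Both IR_Pra animals exceeded both controls for 16 of 23, beside 20.8% of all genes, and lay below both for 0, beside 20%. Both IR animals exceeded both controls for 4 (29.8% of all genes) and lay below both for 0 (30%). Both IR_Pra animals exceeded both IR animals for 5 (27.3%) and lay below both for 0 (26.6%). MKI67, the Ki-67 antigen of cycling cells, had 158 and 162 CPM in IR_Pra, 50.7 and 159 CPM in IR, and 146 and 105 CPM in control. IR 1 alone was low, and the log2 fold change was -0.26 ± 0.52 in IR against control (adjusted p = 0.766) and 0.61 ± 0.53 in IR_Pra against IR (adjusted p = 0.504). Without IR 2, where IR 1 alone stands for the IR group, MKI67 stood at -1.31 in IR against control and at 1.66 in IR_Pra against IR. Without IR 1, where IR 2 alone stands for it, these values were 0.33 and 0.014.

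Genes of like pattern were ranked, among 13439 genes with a mean of at least 1 CPM, by the root mean square difference of their log2 levels, centred on control, over the 6 libraries. Nearest to LGR5 were TNFSF15 (0.266), IRS2 (0.317), GRIA2 (0.318), C9H1orf186 (0.323) and PI4K2B (0.334). Among the nearest to OLFM4 were TMEM229A (0.194), NHS (0.210), TENM2 (0.224) and RAB15 (0.252). Nearest to CD44 were AQP1 (0.081), PDE1A (0.120), SLC40A1 (0.144), PTGR2 (0.153) and GRK3 (0.163). The distances to LGR5 were the widest of the 3, and no other member of the set was among the 5 nearest genes of any of the 3.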

How the data were processed

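The deposited table gives 2 values per gene and library. Per the file headers these are the read count and FPKM, and the authors' counts were checked to be whole numbers. Per the submitters' processing notes, reads were made with bcl2fastq 2.20.0, trimmed with Trimmomatic, aligned with HISAT2 2.1.0 and assembled with StringTie 2.1.3b, and Sscrofa11.1 and GRCh38 are named as builds. How counts were made, whether strand was used and what GRCh38 served for are not given in the sources used here. All 30352 named genes matched RefSeq on Sscrofa11.1 by Entrez ID. Another 24 rows without a name held 0.00906% to 0.0385% of a library's counts and were left out.

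Counts were tested in R 4.3.3 with edgeR 4.0.16 (limma 3.58.1) after filterByExpr by group (18197 genes) and TMM scaling. All 6 libraries entered 1 quasi-likelihood fit with 3 residual degrees of freedom and a common biological coefficient of variation of 0.431. Tests were two-sided, with Benjamini-Hochberg adjustment over all genes tested and a threshold of 0.05. CPM are counts scaled by the TMM factors. SE come from the F statistic, and log2 levels used a prior count of 2. The fit was run on simulated counts with a spread between animals set lower than in these data and equal in all genes. That run does not show how the fit performs at the spread found here. DESeq2 1.42.0, other scalings, no filter and leaving out each library were alternatives.

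The members and the 16 other gene lists were chosen with earlier results of these data known. All 10 members are named; of other lists, MKI67, EPCAM, genes past the threshold and otherwise up to 4 with the smallest p. 1 of the genes of like pattern is not reported here.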

Additional observations from a re-analysis of the deposited data

How the results depend on the processing

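LGR5 kept its sign under every alternative run in all 3 comparisons. In IR against control it ranged from -3.25 to -2.03 on the log2 scale when 1 library was left out (edgeR adjusted p 0.0579 to 0.257) and was -1.25 with epithelial counts as the scale (adjusted p = 0.485); in IR_Pra against IR it ranged from 1.38 to 2.66 and was 0.70 on that scale (adjusted p = 0.704). Of the 150 member values recomputed per comparison, 137 kept direction and side of the threshold in IR against control, 135 in IR_Pra against IR and 144 in IR_Pra against control. The number of genes past the threshold in IR against control was 1103 (616 higher), but 4131 with DESeq2, 475 (182 higher) with library size alone, 0 with only the 4 libraries of the comparison, and 1328 (1275 higher) on epithelial counts; leaving out 1 library gave 0 to 5342, with 0 without either control or either IR_Pra library, 5342 without IR 1 and 3284 without IR 2. All 8 Wnt pathway calls were lost whenever a control or an IR_Pra library was left out. In IR_Pra against IR the count was 1, but 2871 with DESeq2, 2 with library size alone or no filter, 116 on epithelial counts, 0 with the 4 libraries, and 0 to 3728 with 1 library left out (3728 without IR 1, 2317 without IR 2, and 0 without any other). The older edgeR quasi-likelihood method, added after seeing the data, gave 790 calls in IR against control. In IR_Pra against control it was 0, but 71 with DESeq2 and 4 on epithelial counts, and 0 with any library left out. Members past the threshold in IR against control numbered 1 with DESeq2, 1 on epithelial counts and 0 to 1 with 1 library left out; in IR_Pra against IR DESeq2 passed 2. The median of all genes in IR_Pra against IR was 0.14 with library size alone and -0.02 with TMM. The causes of these shifts were not tested. The replicate numbers name separate animals, and same-numbered libraries did not deviate together (r of 0.081, -0.091 and -0.110 in IR against control, IR_Pra against IR and IR_Pra against control); with the replicate number as a block, 0 genes passed in each comparison, and LGR5 was -2.59 in IR against control (adjusted p = 0.0889).

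Signs reversed as follows (log2). In IR against control, EPHB2 was -0.066 with library size alone; AXIN2 was 1.47, SOX9 1.08 and MKI67 1.44 on epithelial counts; AXIN2 was 0.086 and MKI67 0.045 with the length trend removed. In IR_Pra against IR on epithelial counts, OLFM4 was -1.20, AXIN2 -1.38, EPHB2 -0.81, SOX9 -0.72, CD44 -1.17, APC -0.15 and MKI67 -1.13; with the length trend removed, AXIN2 was -0.021 and CD44 -0.053. In IR_Pra against control on epithelial counts, LGR4 was -0.0075. With 1 library left out, the ranges that crossed 0 in IR against control were AXIN2 -0.49 to 0.64, RNF43 -0.40 to 1.07, MKI67 -1.31 to 0.33, OLFM4 -0.24 to 1.08 and EPHB2 -0.28 to 0.51. The ranges that crossed 0 in IR_Pra against IR were OLFM4 -0.21 to 1.35, AXIN2 -0.11 to 0.48, CD44 -0.13 to 0.33, RNF43 -0.86 to 0.61 and LRIG1 -1.18 to 0.31, and MKI67 ranged from 0.014 to 1.66. In IR_Pra against control they were AXIN2 -0.39 to 0.74, RNF43 -0.052 to 0.50, LGR4 -0.40 to 0.36, NKD2 -0.058 to 0.23, FZD5 -0.58 to 0.067, SMOC2 -0.13 to 0.52 and ASCL2 -0.53 to 0.075.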

Other observations

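Genes described for the regenerating gut lining after injury gave 1 call among 7 kept in IR against control, beside 6.06% of all genes. ANXA1, a protein of injured and regenerating epithelium, rose in IR against control, at 45.4 and 41.4 CPM in IR_Pra, 58.3 and 165 CPM in IR, and 15.3 and 20.1 CPM in control (log2 2.65 ± 0.51, edgeR adjusted p = 0.0461). This call was lost with library size alone (adjusted p = 0.0633), without the filter (0.0509), with the length trend removed (0.0667) and without either control or either IR_Pra library (0.109 to 0.247), and without IR 2 the value was 1.71 (0.0184). The median log2 fold change of the 7 genes kept from this list was 0.93 in IR against control. At an unadjusted p under 0.05 in edgeR, 3 were higher and 0 lower there, beside 30.2% of all genes. In IR_Pra against IR 0 passed (1 higher and 1 lower unadjusted, beside 24.5%, and 0 in DESeq2, beside 15.8%). In IR_Pra against control 0 passed (2 higher and 0 lower unadjusted, beside 3.42%, and 0 in DESeq2, beside 0.406%). ANXA1 is also expressed by stromal cells and leukocytes, whose part was not tested.

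Among the remaining cell type lists in IR against control, 0 of 9 general epithelial genes passed in edgeR (1 at an unadjusted p under 0.05, 0 in DESeq2), as did 0 of 11 enterocyte genes (2 unadjusted, 3 in DESeq2), 0 of 8 goblet cell genes (0 unadjusted, 0 in DESeq2) and 0 of 5 genes related to Paneth cells (2 unadjusted, 2 in DESeq2). Of 6 tuft cell genes 1 fell, of 6 endothelial genes 1 rose, and of 6 enteric glia genes GFAP rose and ERBB3 fell. Beside these lists, 3.39% of all genes rose and 2.68% fell in edgeR. The shares of all genes were 30.2% unadjusted and 22.7% in DESeq2. The only gene that passed in IR_Pra against IR, LOC110255225, was listed at 0 counts in both IR libraries, with 62.8 and 70.5 CPM in IR_Pra and 59.5 and 44.2 CPM in control (edgeR adjusted p = 0.0339).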
